A study of Mus musculus with 4 samples.

Results

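The interleukin-1 family and its receptors are described here in cultured mesenchymal cells of the embryonic palate, the shelf tissue that forms the roof of the mouth. The set holds 10 genes chosen by name, namely Il1a, Il1b, Il1rn, Il1r1, Il1r2, Il1rap, Il1rl1, Il33, Il18 and Sigirr. Of these, 9 had a probe set whose single symbol in the platform annotation was the gene, among 18193 genes with such a probe set, and they had 16 probe sets in all. Il1rl1 was not analysed here.

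The primary cultures came from outbred wild-type mice at day 14 of embryonic development. There were 4 cultures, each read on 1 Affymetrix array: an untreated culture, a culture given TGF-beta2 for 120 minutes, and a culture each given SB431542 or 5Z-7-oxozeaenol (oxozeaenol below) for 60 minutes before the same TGF-beta2 exposure. SB431542 inhibits the kinase of the TGF-beta type I receptor, and oxozeaenol inhibits Tak1. The design addresses the response to TGF-beta2 and the part of each kinase in it. No culture received an inhibitor without TGF-beta2, and no group had a replicate, so every difference below is between 2 arrays and has no replicate check, no error and no test. With 4 arrays in all, the precision of each value is low.

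Interleukin-1 alpha and beta are inflammatory cytokines that bind the receptor encoded by Il1r1, which then recruits the accessory chain encoded by Il1rap. The joined receptor signals through the adaptor Myd88, Irak kinases and Traf6 to Tak1, and from there to NF-kappaB and MAP kinases, so the kinase that oxozeaenol inhibits stands directly in this pathway. Il1rn encodes a receptor antagonist, Il1r2 a decoy receptor without a signalling domain, and Sigirr an inhibitory member of the receptor family. Fibroblasts and other mesenchymal cells are classical responders to interleukin-1, whereas macrophages are a main source of interleukin-1 beta and epithelial cells of interleukin-1 alpha, interleukin-18 and interleukin-33.

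The median signal of an array lay between 66.3 in the untreated culture and 72.7 with SB431542. Mesenchymal identity was checked with 12 markers such as Col1a1, Pdgfra and Prrx1, and all 12 passed the filter, with a summed signal between 120232 and 133270 per array. The sum does not describe each marker: Pdgfra read 3643 untreated, 1704 with TGF-beta2, 3835 with SB431542 and 3386 with oxozeaenol. Macrophage markers were also high, and all 15, among them Csf1r, Adgre1 and C1qa, passed the filter, with a summed signal between 77649 (oxozeaenol) and 94182 (untreated). Of 8 mast cell markers 0 passed, and of 8 endothelial markers 2 passed. Basal and simple epithelial markers summed to between 1832 and 1938 on the other arrays and to 6374 with oxozeaenol, and suprabasal and cornified markers to between 1474 and 1841 on the other arrays and to 13580 with oxozeaenol. In bulk RNA from a culture, fewer cells of a type and less RNA per cell cannot be told apart.

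A signal carries no unit beyond the common level to which the submitters scaled each array, so differences are taken within a probe set across arrays. The filter, the choice of the brightest probe set and the marker sums do set signals of different probe sets side by side. Differences are given as log2(signal + 21.7), where 21.7 is the 25th percentile of all values, and folds on this scale understate the change of dim genes. To pass the filter, a probe set needed a mean signal, taken on the log2 scale, of at least 66.1, the median of all probe sets. Of the 9 measured members, 6 passed (Il1b, Il18, Il1rn, Il1r1, Il1rap and Sigirr) with 10 probe sets, and Il1a, Il33 and Il1r2 did not. The brightest probe set stood for a gene, and a gene was counted as higher or lower when 2 arrays were at least 2-fold apart.

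**Figure D1:**
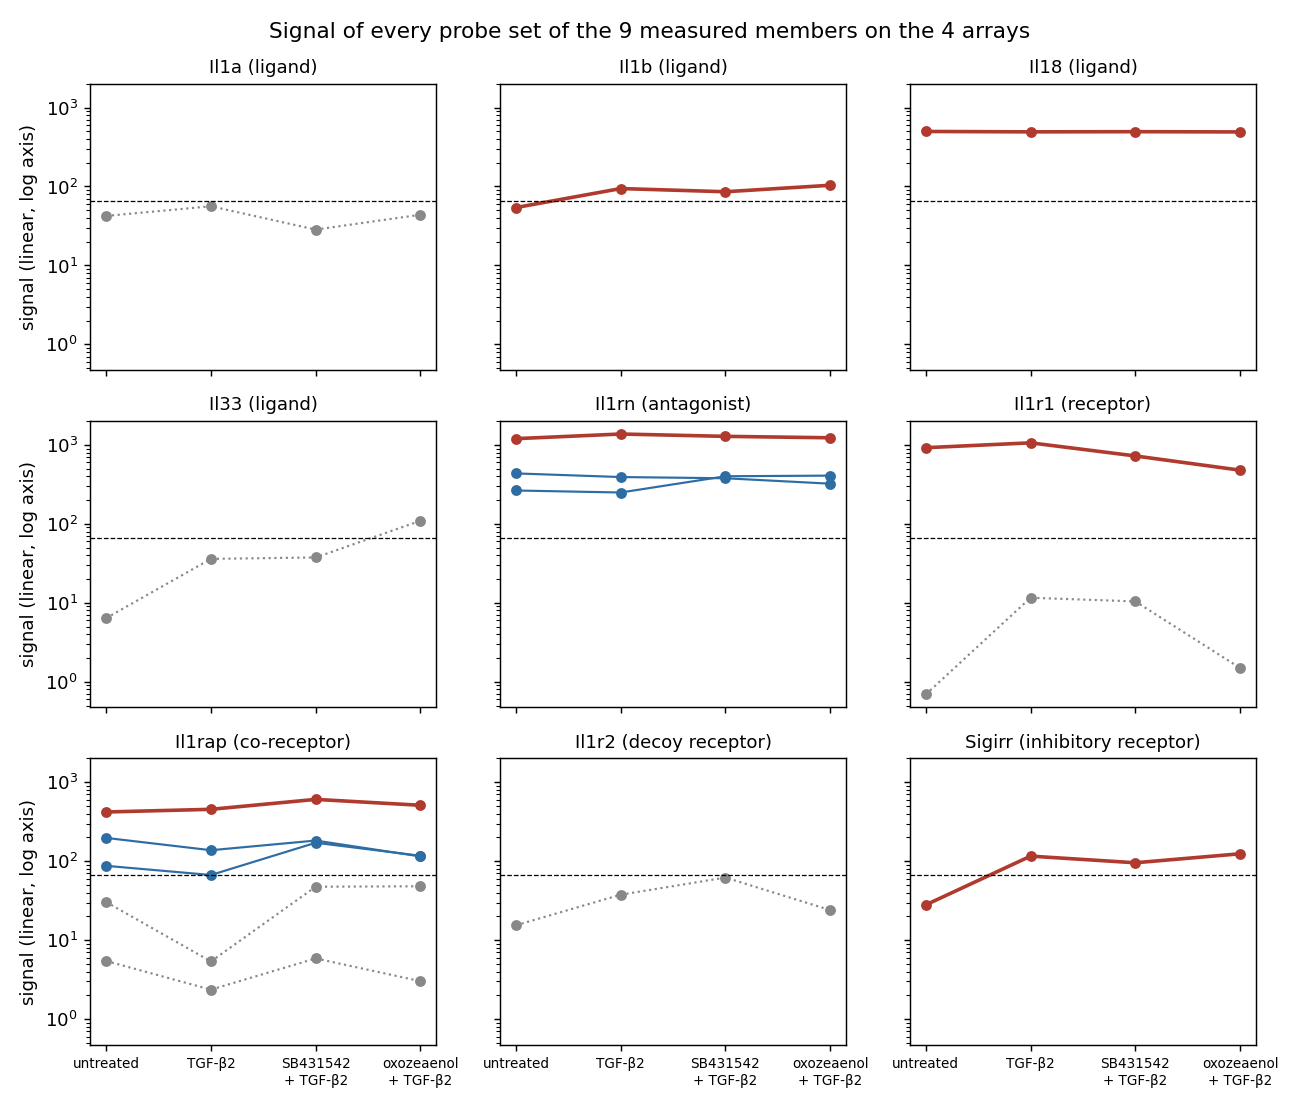
Signal of each of the 16 probe sets of the 9 measured members (y axis, linear signal on a log axis) on the 4 arrays (x axis, 1 array per group). Red marks the probe set that stands for the gene, blue the other probe sets past the filter, grey dotted lines those under it, and the dashed line the filter level of 66.1. Il18 is flat at 491 to 498, Il1r1 is lowest with oxozeaenol at 479, and Sigirr is lowest in the untreated culture at 28.0.

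The signalling receptor Il1r1 was the member at least 2-fold lower with oxozeaenol than with TGF-beta2 alone. Its signals were 922 in the untreated culture, 1062 with TGF-beta2, 724 with SB431542 and 479 with oxozeaenol. The culture with TGF-beta2 alone was the highest, and both inhibitor cultures lay under the untreated one. With oxozeaenol Il1r1 was 2.17-fold lower than with TGF-beta2 alone (log2 difference −1.12), the 206th lowest of 11744 genes. It was 1 of 6 members at least 2-fold lower in this comparison, and 2.17% of all genes were. None of the 6 was at least 2-fold higher, where 1.82% of all genes were. Against the untreated culture Il1r1 with oxozeaenol had a log2 difference of −0.92, under the 2-fold rule, as were those of TGF-beta2 over untreated (0.20), SB431542 over TGF-beta2 (−0.54) and SB431542 over untreated (−0.34). Over 7 alternative settings the oxozeaenol difference lay between −1.19 and −1.05. The other Il1r1 probe set was under the filter, with signals between 0.69 and 11.6. On the same arrays, the mesenchymal marker sum was 123894 with oxozeaenol and 126119 with TGF-beta2, and the macrophage sum was 77649 and 89182. All 12 mesenchymal markers were within 2-fold, with log2 differences from −0.67 (Pdgfrb) to 0.98 (Pdgfra). The part of cell composition in the Il1r1 difference was not tested.

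Il1r1 has 2 promoter windows in RefSeq (build GRCm38.p6). Both are shown because, among the members past the filter, Il1r1 was at least 2-fold apart between oxozeaenol and TGF-beta2 alone. Il33, under the filter, also differed there, with a log2 difference of 1.18, and its windows are not shown. The upstream window of Il1rn is shown beside those of Il1r1 as the window with an AP-1 match among members past the filter. Il1a, under the filter, also has a window with an AP-1 match, which is not shown. The other Il1rn windows hold none of the motifs searched and are not shown. The leading Il1rn probe set was nearly flat. Each line gives the 250 bases before an annotated start site, 5′ to 3′ on the plus strand, with motif matches in capitals.
Il1r1, chr1:40224830-40225079: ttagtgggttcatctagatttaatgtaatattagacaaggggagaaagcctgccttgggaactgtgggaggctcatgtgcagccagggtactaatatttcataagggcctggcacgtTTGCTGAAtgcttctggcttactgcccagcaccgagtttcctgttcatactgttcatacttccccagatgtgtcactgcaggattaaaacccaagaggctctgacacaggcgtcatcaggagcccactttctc
Il1r1, chr1:40266336-40266585: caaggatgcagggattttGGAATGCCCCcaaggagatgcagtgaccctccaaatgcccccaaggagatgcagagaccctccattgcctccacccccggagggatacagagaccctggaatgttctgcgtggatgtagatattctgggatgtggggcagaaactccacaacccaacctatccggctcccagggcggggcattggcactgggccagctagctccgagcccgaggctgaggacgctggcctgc
Il1rn, chr2:24336610-24336859: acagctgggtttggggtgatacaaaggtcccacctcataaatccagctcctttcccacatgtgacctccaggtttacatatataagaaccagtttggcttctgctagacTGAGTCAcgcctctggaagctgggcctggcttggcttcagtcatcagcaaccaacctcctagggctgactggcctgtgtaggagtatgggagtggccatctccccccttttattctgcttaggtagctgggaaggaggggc
The first Il1r1 window holds a C/EBP match beginning 133 bases before the start site, and the second a match to the kappaB consensus on the minus strand beginning 232 bases before it. The Il1rn window holds an AP-1 match beginning 141 bases before the start site. Motifs were searched on both strands of windows from 250 bases before to 50 bases after each start site. AP-1 was searched as TGANTCA, C/EBP as TTGCNNAA and the Smad box as CAGACA, and these letters do not overlap one another in the lines shown.

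RefSeq held 14 windows for 9 of the 10 gene names, and Sigirr is named only. AP-1 matches lay in 2 of the 14, those of Il1rn and Il1a, against 7.81% of all 32851 windows. The kappaB consensus lay in 1 of 14 (8.46% of all windows), C/EBP in 3 (10.8%) and the Smad box in 1 (21.0%), which lies after the start site in the first Il1r1 window. These are matches of letters, and none of them is a measured binding site.

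Of the genes at least 2-fold apart between any 2 arrays, 786 others could be set against Il1r1 by pattern. The closest over the 4 arrays, by Euclidean distance between log2 values centred on each gene's mean, were Gfod1 (0.053), Slc66a2 (0.068) and Surf6 (0.087). Surf6, which encodes a nucleolar protein, read 603 untreated, 752 with TGF-beta2, 506 with SB431542 and 319 with oxozeaenol. All 3 were highest with TGF-beta2 alone and lowest with oxozeaenol, as Il1r1 was. With 4 points per gene, such likeness is a description of these arrays.

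The leading probe set of the accessory chain Il1rap was brightest with SB431542. It read 420 untreated, 454 with TGF-beta2, 607 with SB431542 and 511 with oxozeaenol, so the highest and lowest arrays were 1.42-fold apart. A second probe set past the filter read 87.4 untreated, 66.9 with TGF-beta2, 171 with SB431542 and 117 with oxozeaenol, and was 2.18-fold higher with SB431542 than with TGF-beta2 alone. The third read 197 untreated, 138 with TGF-beta2, 183 with SB431542 and 115 with oxozeaenol. The probe sets disagreed on the brightest array, which was the untreated one for the third and the oxozeaenol one for a dim one under the filter. All 5, including 2 under the filter, were higher with SB431542 than with TGF-beta2 alone, by log2 differences from 0.20 to 1.35. For TGF-beta2 over untreated 4 of the 5 were lower and the leading one was higher by 0.11, and with the mean of the 3 probe sets past the filter the gene's difference turned to −0.22. With SB431542, 0 of 6 members were called higher against TGF-beta2 alone, where 0.613% of all genes were, and 0 were lower, where 1.18% were.

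Sigirr encodes a protein that dampens signalling by interleukin-1 and Toll-like receptors. Among the members past the filter, it stood furthest apart in the untreated culture. Il1b, Il1r2 and Il33, given below, were also lowest on that array. The single Sigirr probe set read 28.0 untreated, 116 with TGF-beta2, 95.6 with SB431542 and 124 with oxozeaenol. The untreated array alone was low, and the 3 arrays exposed to TGF-beta2 lay close together, with the inhibitor arrays 1.24-fold apart. Sigirr was 2.77-fold higher with TGF-beta2 than untreated, 2.36-fold with SB431542 and 2.94-fold with oxozeaenol, and these comparisons share the untreated array. It was the 1 member of 6 at least 2-fold higher in each, where 0.673%, 0.468% and 1.49% of all genes were. No member was at least 2-fold lower than untreated, where 0.366%, 0.383% and 1.51% of all genes were, in the same order. Among the dimmest 25% of the genes past the filter, to which Sigirr belongs, 1.09% were called higher than untreated with TGF-beta2, 1.43% with SB431542 and 3.41% with oxozeaenol. The untreated signal was under the filter level, and with a pseudocount at the median of all values the log2 differences were 0.93, 0.76 and 0.99, which ends all 3 calls. Its nearest patterns were more distant than those of Il1r1: Gm5617 (0.28), Luc7l3 (0.30), which encodes a splicing factor, and Nxt2 (0.31), which encodes an RNA export factor.

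**Figure D2:**
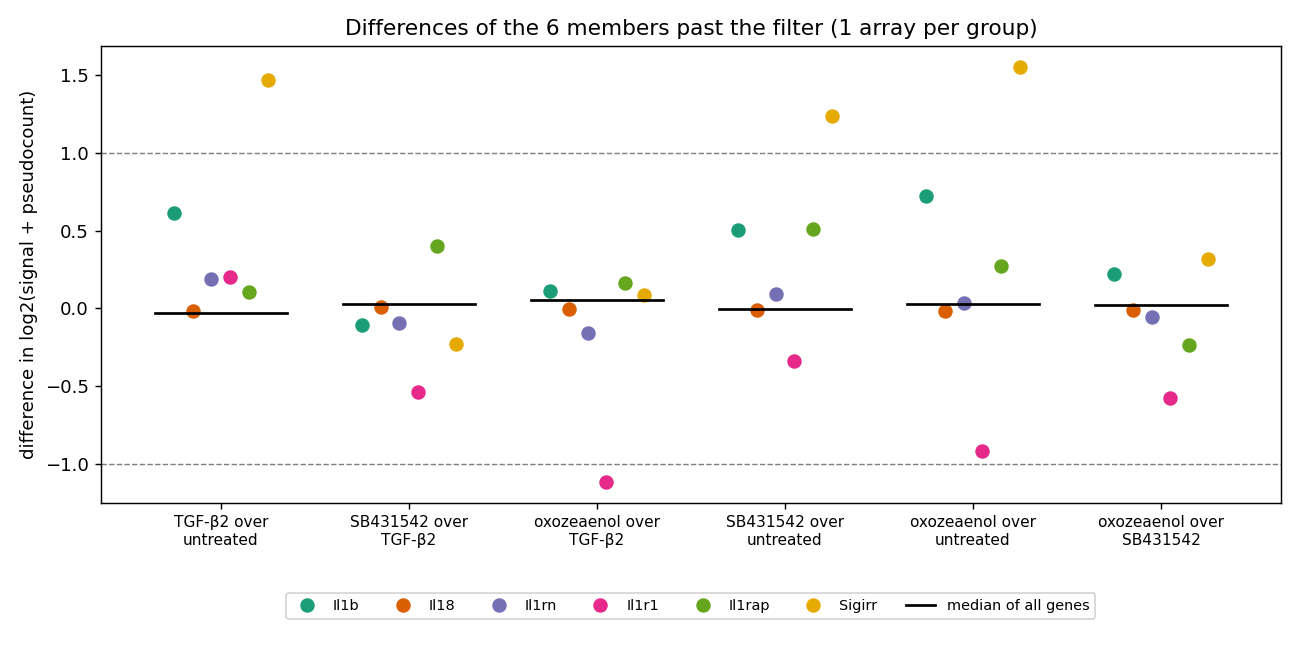
Difference in log2(signal + pseudocount) (y axis) of the 6 members past the filter in 6 comparisons between arrays (x axis, 1 array per group). Points are genes, black bars the median of all 11744 genes, and dashed lines the 2-fold rule. Sigirr lies above the rule in the 3 comparisons with the untreated array, Il1r1 below it at −1.12 for oxozeaenol over TGF-beta2, and the other members within it.

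Il1r2, the decoy receptor, was under the filter. Its signals were 15.5 untreated, 37.7 with TGF-beta2, 62.1 with SB431542 and 24.0 with oxozeaenol. The SB431542 array was the highest and the untreated array the lowest, and all 4 lay below the filter level.

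Among the ligands, Il18 was level on all arrays and Il1b was dim. Il18 read 498 untreated, 492 with TGF-beta2, 494 with SB431542 and 491 with oxozeaenol, a span of 1.01-fold. Interleukin-18 is made as an inactive precursor and induces interferon-gamma in lymphocytes. Il1b read 54.1 untreated, 94.2 with TGF-beta2, 85.8 with SB431542 and 104 with oxozeaenol, again with the untreated array alone low and under the filter level. Its log2 differences from untreated were 0.61, 0.50 and 0.73 in that order, all within 2-fold. Il1a read 42.4 untreated, 56.2 with TGF-beta2, 28.4 with SB431542 and 43.9 with oxozeaenol, below the filter level on every array. Il1a and Il1b are neighbouring genes on mouse chromosome 2, per the GRCm38.p6 annotation.

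Il33, an alarmin held in the nucleus of epithelial and stromal cells, read 6.4 untreated, 36.0 with TGF-beta2, 37.5 with SB431542 and 109 with oxozeaenol. The oxozeaenol array was the highest and the one array above the filter level, so the gene's mean did not pass. The log2 difference of oxozeaenol over TGF-beta2 was 1.18, and it was 0.76 with the pseudocount at the median of all values. Over untreated, the Il33 differences were 1.04 with TGF-beta2, 1.08 with SB431542 and 2.22 with oxozeaenol. With that pseudocount they were 0.47, 0.49 and 1.23. On the same array the epithelial marker sums given above were highest, and their part in the Il33 signal was not tested. Whether or not they passed the filter, 5 of 9 basal and simple markers and 9 of 12 suprabasal and cornified markers read 2-fold or more above their level with TGF-beta2 alone, while Ivl read 40.3 with TGF-beta2 and 4.6 with oxozeaenol and Flg 20.1 and 17.8. With no filter, 588 of 18193 genes were at least 2-fold higher with oxozeaenol than with TGF-beta2 alone. Past the filter, 3 of 7 basal and simple markers and 7 of 8 suprabasal and cornified markers were. Some passed only through the oxozeaenol array, so the filtered counts are not independent of the filter. The suprabasal markers Krt13 and Krtdap, for example, were under the filter level on every other array. Among all genes past the filter 1.82% were higher in this comparison. Trp63, a regulator of basal epithelium, read 37.2 with TGF-beta2 and 128 with oxozeaenol.

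The antagonist gene Il1rn was read by 3 probe sets, all past the filter. The leading one read 1199 untreated, 1373 with TGF-beta2, 1283 with SB431542 and 1231 with oxozeaenol, a span of 1.14-fold. The other two differed in direction from each other: one read 265 untreated, 249 with TGF-beta2, 401 with SB431542 and 408 with oxozeaenol, and the other 435, 392, 378 and 323 in the same order. No Il1rn probe set was 2-fold apart between any 2 arrays. Between the inhibitors, 0 of the 6 members were at least 2-fold higher with oxozeaenol than with SB431542, where 1.51% of all genes were, and 0 lower, where 1.30% were. The largest difference there was that of Il1r1, at −0.58.

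The median log2 difference of the 6 members past the filter was 0.20 for TGF-beta2 over untreated (−0.03 over all genes), −0.10 for SB431542 over TGF-beta2 (0.03) and 0.04 for oxozeaenol over TGF-beta2 (0.05). With TGF-beta2 5 of the 6 lay above 0 and Il18 at −0.02. This count moved with the setting: median centring put Il18 at 0.0036, and the mean of all kept probe sets put Il1rap at −0.22 and Il1rn at −0.010, which left 3 of 6 above 0. In both inhibitor comparisons with TGF-beta2 alone, members lay on both sides of 0.

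The list of the other ligands and receptors of the family held 16 names, some of them older and newer symbols of the same gene. Each gene had a probe set under 1 of its names, 11 in all, and 6 passed the filter. Il1f6, the older symbol of the epithelial cytokine gene Il36a, was the 1 of these 6 called higher for oxozeaenol over TGF-beta2, where 1.82% of all genes were, and 3.64% of the dimmest 25%, to which it belongs. Its signals were 40.6 untreated, 45.1 with TGF-beta2, 75.8 with SB431542 and 144 with oxozeaenol. The untreated and TGF-beta2 signals were under the filter level, and the high oxozeaenol signal raised the mean that the filter used. The passing of Il1f6 is therefore not independent of its call for oxozeaenol over TGF-beta2, and the shares beside that call are no independent comparison. The other 5 were within 2-fold in that comparison, and all 6 were within 2-fold for TGF-beta2 over untreated and for SB431542 over TGF-beta2. The list's medians were 0.10, 0.21 and 0.36 for TGF-beta2 over untreated, SB431542 over TGF-beta2 and oxozeaenol over TGF-beta2. Il1f8, the older symbol of Il36b, was under the filter, with 67.5 untreated, 16.2 with TGF-beta2, 74.6 with SB431542 and 121 with oxozeaenol, so the TGF-beta2 array alone was low. The summed epithelial markers were highest on the oxozeaenol array, as given above, and their part in the Il1f6 signal was not tested. Il1rl2, which encodes the receptor for the interleukin-36 cytokines and lies next to Il1r1 on mouse chromosome 1, read between 534 with oxozeaenol and 770 with SB431542.

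**Figure D3:**
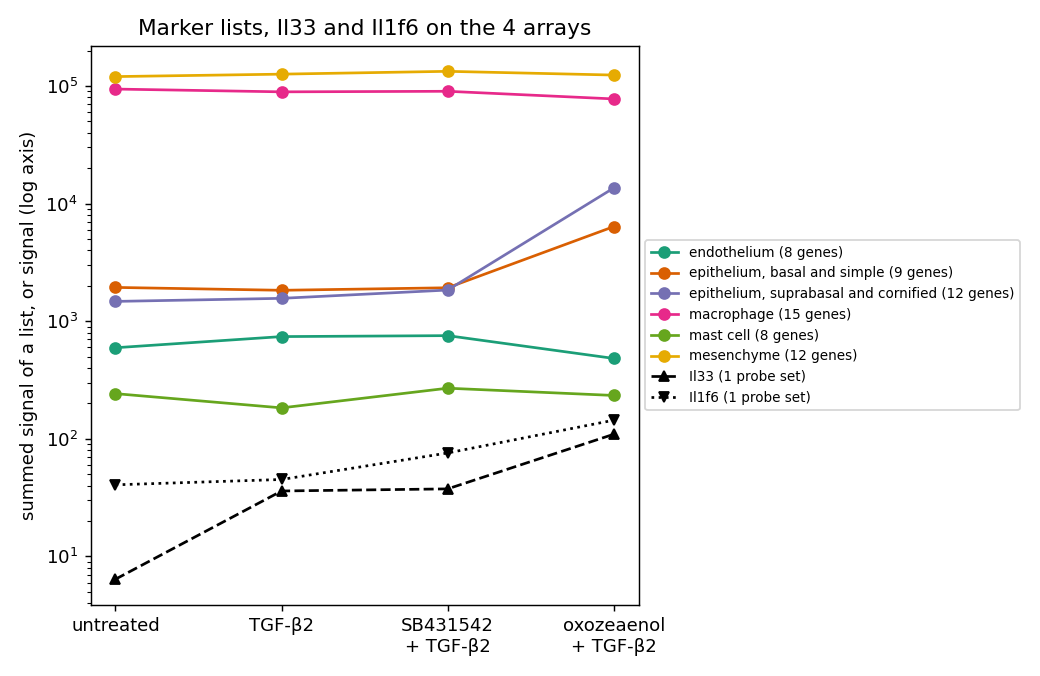
Summed signal of the marker genes of 6 cell types, and signals of Il33 and Il1f6 (y axis, log axis), on the 4 arrays (x axis, 1 array per group). Both epithelial lists, Il33 and Il1f6 are highest on the oxozeaenol array, and the mesenchymal sum stays between 120232 and 133270.

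Measured transcripts of the signalling chain below the receptor were within 2-fold between arrays, as nearly all genes were. Of 22 listed genes, 18 had a probe set and passed the filter, and all 18 were within 2-fold in each of the 6 comparisons. Over all genes, the shares called ran from 0.468% to 1.82% higher and from 0.366% to 2.17% lower. At such shares, a list of 18 with no call is not set apart from other genes. The medians were 0.06 for TGF-beta2 over untreated, −0.07 for SB431542 over TGF-beta2 and 0.02 for oxozeaenol over TGF-beta2. Myd88, the adaptor, read 980 untreated, 808 with TGF-beta2, 909 with SB431542 and 923 with oxozeaenol. Irak3, which encodes a kinase-dead brake on the pathway, had the largest difference with TGF-beta2, at 0.65, with signals of 101 untreated and 170 with TGF-beta2. Peli1, a ubiquitin ligase of the pathway, was highest with oxozeaenol at 1191, against 898 with TGF-beta2.

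Of 15 listed genes that process and release the cytokines, 13 had a probe set and 12 passed the filter. For oxozeaenol over TGF-beta2, 1 of the 12 was called lower, where 2.17% of all genes were. Nlrp3, the sensor of the inflammasome that activates caspase-1, read 233 untreated, 250 with TGF-beta2, 306 with SB431542 and 64.8 with oxozeaenol. The oxozeaenol array was the lowest, with a log2 difference of −1.65 from TGF-beta2 alone, and the other 11 were within 2-fold. Casp1, which encodes the protease that cleaves the interleukin-1 beta and interleukin-18 precursors, was highest untreated at 662 and read 387 with TGF-beta2, 476 with SB431542 and 356 with oxozeaenol. The adaptor Pycard stayed between 1318 and 1543. Nlrp3 is a gene of macrophages. Of the 15 macrophage markers 0 were at least 2-fold lower with oxozeaenol than with TGF-beta2 alone, where 2.17% of all genes were. Their median was −0.21, and the lowest were Cd14 (−0.73) and Ptprc (−0.55). For oxozeaenol over untreated, the macrophage markers had a median of −0.31. Cd14, a co-receptor for bacterial lipopolysaccharide, was the 1 of the 15 at least 2-fold lower there, at −1.02, where 1.51% of all genes were. The part of macrophages in the Nlrp3 signal was not tested.

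Of 25 listed genes that interleukin-1 is known to induce, 22 passed the filter. With oxozeaenol 9 of these were at least 2-fold lower than with TGF-beta2 alone, where 2.17% of all genes were. Of the 22, 0 were higher, where 1.82% of all genes were. The list was chosen with earlier results of these data known. The gaps between its counts and these shares, here and in the next paragraph, are therefore no independent result about interleukin-1 targets. The list's median was −0.15, against 0.05 over all genes. On the same array the macrophage markers had a median of −0.21, and the suprabasal epithelial sum was 13580 against 1565 and the basal one 6374 against 1832 with TGF-beta2 alone. The part of these cells in the list's differences was not tested. Il6, an inflammatory cytokine, read 331 untreated, 1095 with TGF-beta2, 210 with SB431542 and 66.3 with oxozeaenol. The chemokine Ccl2 read 5185 untreated, 4180 with TGF-beta2, 5362 with SB431542 and 714 with oxozeaenol. Il6 was thus low with both inhibitors and Ccl2 with oxozeaenol alone. Also lower with oxozeaenol were Lif (−3.51), Ccl7 (−2.01), Tnfaip3 (−1.84), Zc3h12a (−1.60), Nfkbiz (−1.49), Cxcl2 (−1.28) and Ptgs2 (−1.16), which encode cytokines, regulators of NF-kappaB or of cytokine messages, and a prostaglandin synthase. The remaining 13 were within 2-fold, among them Nfkbia (−0.12), which encodes an inhibitor of NF-kappaB, the chemokine Cxcl1 (0.39) and the collagenase Mmp13 (−0.01).

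With SB431542, 4 of the 22 were at least 2-fold lower than with TGF-beta2 alone, where 1.18% of all genes were, namely Lif (−3.28), Il6 (−2.27), Zc3h12a (−1.43) and Ptgs2 (−1.24), and the median was −0.01. For TGF-beta2 over untreated, Lif (2.20), Il6 (1.66) and Zc3h12a (1.05) were at least 2-fold higher, where 0.673% of all genes were, 19 were within 2-fold and the median was −0.11. Several of these genes respond to many stimuli, the list shares Irak3 with the signalling list, and no culture received interleukin-1. Against the untreated culture, 7 of the 22 were called lower with oxozeaenol, where 1.51% of all genes were, and 1 with SB431542, where 0.383% were. The list's medians were −0.43 and −0.19.

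**Figure D4:**
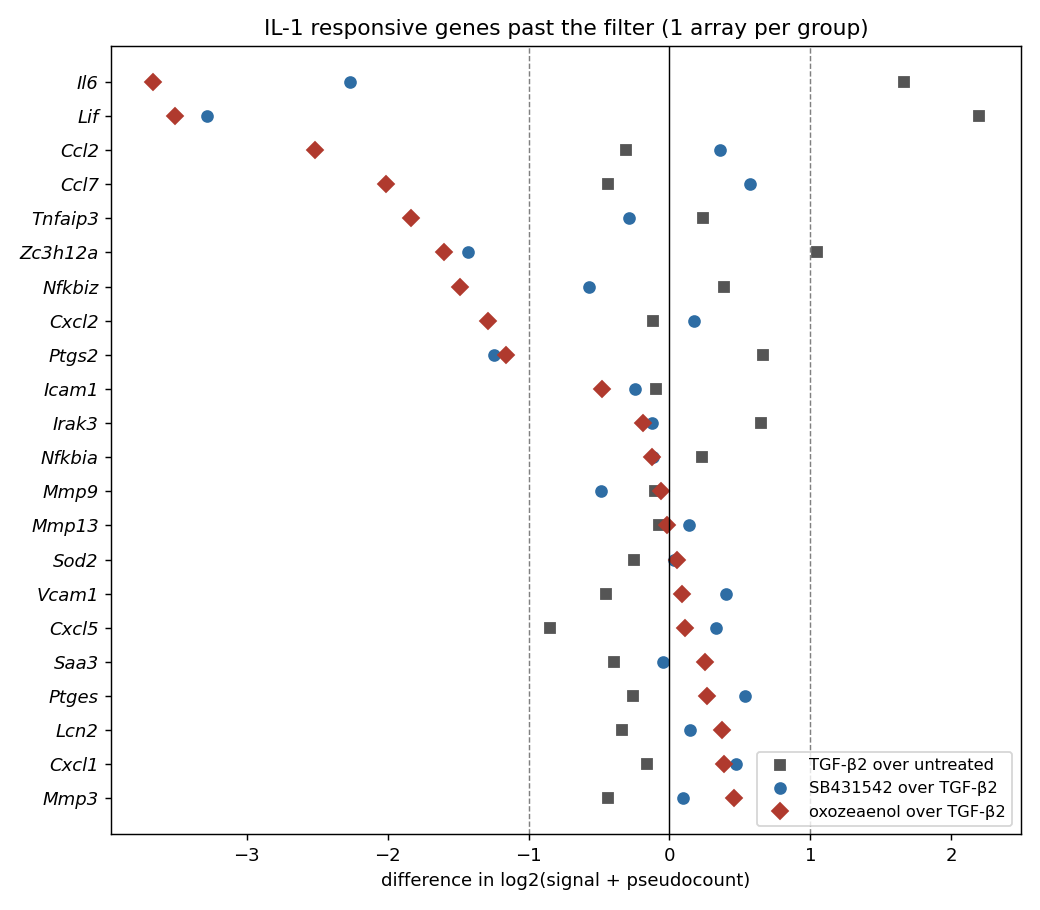
Difference in log2(signal + pseudocount) (x axis) for the 22 interleukin-1 responsive genes past the filter (y axis), ordered by the difference of oxozeaenol over TGF-beta2, with 1 array per group. Points show 3 comparisons and dashed lines the 2-fold rule. Of the 22 genes, 9 lie below −1 with oxozeaenol and 4 with SB431542.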

How the data were processed

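The deposited table held a linear intensity per array for 45101 probe sets. The submitters' processing notes name GCOS, software for Affymetrix arrays, and its version and settings were not given in the sources. Labelling started from 500 ng of RNA, per the labels. The authors' intensities had the same 2% trimmed mean on each array, so a common scaling had been applied, and it takes total transcript abundance as equal between cultures. From these, 64 control probe sets were left out and 34945 probe sets with 1 symbol were used for genes. Intensities were converted to log2(value + 21.7), filtered at the median of the mean log2 value (20064 probe sets with 1 symbol kept), and each of 11744 genes was represented by its brightest kept probe set. With 1 array per group no test was run. Members of each list were counted at 2-fold and set beside the share of all genes. The lists were written from knowledge of the pathway, and the members and lists were chosen with earlier results of these data known. Named genes were all members, listed genes at least 2-fold apart (at most 6 per list and comparison by size, except where a count is spelled out), examples needed to describe a list, and the 3 nearest patterns of members with a 2-fold range. Steps were checked on simulated data. Alternatives covered the pseudocount, the filter, the scaling and the choice of probe set. Python 3.11.15, numpy 2.4.6 and pandas 2.3.3 were used.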

Additional observations from a re-analysis of the deposited data

How the results depend on the processing

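No paired analysis was possible because each group held 1 array. In 7 alternatives the count of members at least 2-fold lower was the same in every comparison, including the 1 (Il1r1) for oxozeaenol over TGF-beta2. Counts of members at least 2-fold higher than untreated changed from 1 each. With no filter, which brings in Il1a, Il33 and Il1r2, they were 2 (TGF-beta2), 3 (SB431542) and 2 (oxozeaenol) of 9. At that setting 350, 457 and 565 of all 18193 genes were higher, in the same order. With the pseudocount at the median, or with the filter at the 75th percentile, which leaves 4 members without Sigirr and Il1b, the member counts were 0. With no filter 1 member, Il33, was also higher with oxozeaenol than with TGF-beta2 and than with SB431542, from 0. Of the 18193 genes, 588 and 527 were higher in these comparisons. Counts over all genes varied more, and for TGF-beta2 over untreated they ranged from 30 to 350 higher (79 as reported) and 17 to 278 lower (43). For SB431542 over TGF-beta2 they ranged from 22 to 463 higher (72) and 62 to 405 lower (139), and for oxozeaenol over TGF-beta2 from 64 to 588 (214) and 149 to 511 (255). For SB431542 over untreated they ranged from 8 to 457 (55) and 6 to 258 (45), for oxozeaenol over untreated from 47 to 565 (175) and 99 to 359 (177), and for oxozeaenol over SB431542 from 46 to 527 (177) and 85 to 473 (153). The extremes came from no filter and from the filter at the 75th percentile, which differ in how many genes they keep. Signals of Sigirr, Il1b, Il33, Il1a and Il1r2 lay near or below the filter level, and their differences depend most on the pseudocount.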
